A study of Mus musculus with 64 samples.

Results

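The granule cells of the dentate gyrus, the densely packed neurons that form the entrance of the hippocampus, were followed here through 7 genes known to mark them: Prox1, Neurod1, Dsp, C1ql2, Tdo2, Trpc6 and Calb1. Every probe set annotated to 1 of these genes was taken, which gave 17 of the 45101 probe sets and 7 of the 18193 genes on the arrays. The rule itself used no measured value, but the genes were chosen with earlier results of these data known. The genes were read in 64 RNA samples, each on its own Affymetrix mouse array, in 8 groups of 8. All mice were 4 months old and of the strain B6SJLF1, an F1 cross of C57Bl/6 and SJL. Tg2576 mice carry a transgene for human mutant amyloid precursor protein, which is driven by a prion protein gene promoter and so is expressed widely in brain neurons, not in granule cells alone. Their controls were wild-type mice. In each genotype some mice were given vehicle and others PF-04447943, which inhibits PDE9A, a phosphodiesterase that degrades cyclic GMP, by subcutaneous infusion for 28 days. Hippocampus and prefrontal cortex were microdissected from these mice, so the 4 combinations of genotype and treatment were present in each region. The labels number the samples of a group but do not name the mice, so p-values measure the spread between these samples, and which hippocampal and cortical samples share a mouse was not used.

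Granule cells receive the main cortical input to the hippocampus through the perforant path and send mossy fibre axons to CA3. They are born throughout postnatal life in the subgranular zone, and Neurod1 and Prox1 are transcription factors of their differentiation and identity. Dsp encodes desmoplakin, a protein that anchors intermediate filaments at cell junctions, and C1ql2 encodes a secreted C1q-like protein of mossy fibre synapses. Tdo2 encodes tryptophan 2,3-dioxygenase, the enzyme that opens the kynurenine pathway of tryptophan breakdown. Trpc6 encodes a calcium-permeable cation channel, and Calb1 encodes the calcium buffer calbindin, which granule cells, CA1 pyramidal cells and many cortical neurons share. In mice that overexpress mutant amyloid precursor protein, loss of calbindin from granule cells is a known feature of the dentate gyrus. The dentate gyrus is only a fraction of a dissected hippocampus, and in such bulk samples fewer granule cells and less RNA per granule cell cannot be told apart.

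The promoter windows of 5 of the genes, which span large and small regional differences, are printed to show what they share in sequence. They are the 250 bases before the annotated start, 5′ to 3′ on the gene's strand, from RefSeq on GRCm38.p6. Capitals mark E-boxes, the motif CANNTG that is bound by basic helix-loop-helix factors, the family of Neurod1. Because the motif is its own reverse complement in form, both strands were covered. The windows lie at chr1:190170828-190171077 on the minus strand for Prox1, chr2:79456637-79456886 on the minus strand for Neurod1, chr13:38151044-38151293 on the plus strand for Dsp, chr1:120340332-120340581 on the plus strand for C1ql2, and chr3:81975729-81975978 on the minus strand for Tdo2.
Prox1: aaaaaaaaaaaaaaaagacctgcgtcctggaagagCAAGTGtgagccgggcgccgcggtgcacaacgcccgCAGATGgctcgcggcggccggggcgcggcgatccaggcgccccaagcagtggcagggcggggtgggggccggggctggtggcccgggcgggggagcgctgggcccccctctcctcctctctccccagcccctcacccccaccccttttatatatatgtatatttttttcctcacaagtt
Neurod1: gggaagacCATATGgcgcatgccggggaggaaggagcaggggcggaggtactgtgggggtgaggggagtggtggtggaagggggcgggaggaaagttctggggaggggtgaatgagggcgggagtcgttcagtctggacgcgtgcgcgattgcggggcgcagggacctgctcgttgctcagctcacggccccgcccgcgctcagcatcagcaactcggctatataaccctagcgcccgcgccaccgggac
Dsp: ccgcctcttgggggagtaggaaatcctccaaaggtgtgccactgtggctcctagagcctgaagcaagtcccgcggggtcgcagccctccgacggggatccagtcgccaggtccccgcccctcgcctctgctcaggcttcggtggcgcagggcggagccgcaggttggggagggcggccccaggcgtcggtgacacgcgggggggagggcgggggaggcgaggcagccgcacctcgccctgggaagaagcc
C1ql2: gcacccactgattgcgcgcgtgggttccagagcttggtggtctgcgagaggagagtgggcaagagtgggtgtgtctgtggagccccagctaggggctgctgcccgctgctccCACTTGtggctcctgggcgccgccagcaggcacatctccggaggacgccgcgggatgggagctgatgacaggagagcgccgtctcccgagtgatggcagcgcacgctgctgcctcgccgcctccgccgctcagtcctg
Tdo2: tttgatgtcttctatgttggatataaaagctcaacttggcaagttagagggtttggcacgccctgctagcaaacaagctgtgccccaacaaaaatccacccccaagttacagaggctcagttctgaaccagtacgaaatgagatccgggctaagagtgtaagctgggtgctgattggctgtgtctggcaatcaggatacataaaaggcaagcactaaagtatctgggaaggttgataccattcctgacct
For 6 of the 7 genes the table held a window, with 2 windows for Prox1, and it held none for Calb1. A match to CANNTG stood in 3 of these 7 windows, against 66.2% of all 32851 windows of this length in the table. The first Prox1 window held 2 matches, the nearer one 179 bases before the start, while C1ql2 and Neurod1 held 1 each, at 138 and 242 bases. The form CAGATG, or CATCTG on the other strand, which is contained in CANNTG, stood in the first Prox1 window and in 14.4% of all windows. No match was found in the windows of Dsp, Tdo2 and Trpc6 or in the second window of Prox1. GC content ran from 46.4% in Tdo2 to 72.4% in Dsp. The median over all windows was 52.4%, and only the Tdo2 window was below it.

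Array values are log2 of the deposited intensity, so a difference of 1 is a doubling, and levels of separate probe sets are not compared with each other. Where a gene had several probe sets, the one with the highest mean over all arrays stands for it, and the dentate mean is the mean log2 level of the 7 genes on an array. Tests were made with limma, 1 probe set at a time, with Benjamini-Hochberg adjustment over all 27022 probe sets that passed a filter on low values. Of the 17 probe sets of the dentate genes, 13 passed the filter in hippocampus and 7 in prefrontal cortex, and 12 passed in the fit of all 64 arrays, where Tdo2 did not. A probe set was called where its adjusted p was under 0.05.

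The hippocampal array of replicate 1 of the PF-04447943-treated Tg2576 group stood apart from the other 31 hippocampal arrays. Its dentate mean was 6.68, against 8.18 to 9.14 on the other hippocampal arrays and 6.39 to 6.92 on the 32 cortical arrays. On it, 15 of the 17 dentate probe sets lay within the range of the cortical arrays. The count includes probe sets whose regional ranges overlapped, such as the 4 of Calb1 and that of Trpc6. For these, 0 to 3 and 9 of 32 hippocampal arrays were above all of cortex. The share over all probe sets was not computed. The exceptions to the cortical range were Prox1 1457432_at, at 4.76 below the cortical minimum of 4.91, and C1ql2. The C1ql2 level of 7.69 was above the cortical maximum of 6.60 and below the lowest other hippocampal array, at 8.77. A further list of 13 measured dentate genes averaged 8.08 on this array, against 8.69 to 9.42 on the others, with 8 of the 13 below all other hippocampal arrays and 3 above (C1ql3, Glis3 and Pdzd2). The list of CA1 pyramidal cell markers averaged 8.37 against 9.24 to 10.13, with 7 of 10 below all others, and the myelin list averaged 10.15 against 10.996 to 12.01, with 8 of 8 below. Markers of cortical layer neurons went the other way, with a mean of 9.26 against 7.37 to 8.47 and 7 of 10 above all other hippocampal arrays. One CA1 marker, Wfs1, was also higher there, at 12.35 against 10.19 to 11.65. The share of all probe sets on which this array was below or above all other hippocampal arrays was not computed. The counts for these lists are thus not read as particular to them. In cortex the CA1 list ran from 7.65 to 8.31, the myelin list from 10.48 to 11.46 and the cortical layer list from 8.91 to 9.74. Across all probe sets this array correlated with the mean hippocampal profile at r = 0.984 (other hippocampal arrays 0.992 to 0.997, cortical arrays 0.9815 to 0.9886). With the mean cortical profile it had 0.989 (other hippocampal arrays 0.981 to 0.991, cortical arrays 0.9897 to 0.9975). On a scale with the cortical mean at 0 and the hippocampal mean at 1, its median position was 0.099. This position was read from probe sets that differed widely between the regions, 134 for this array. Each array was left out of the means it was set against. The other hippocampal arrays lay at 0.788 to 1.17 and the cortical arrays at -0.107 to 0.222. What tissue this sample held was not tested beyond these values, and results that include it are given with and without it.

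**Figure D1:**
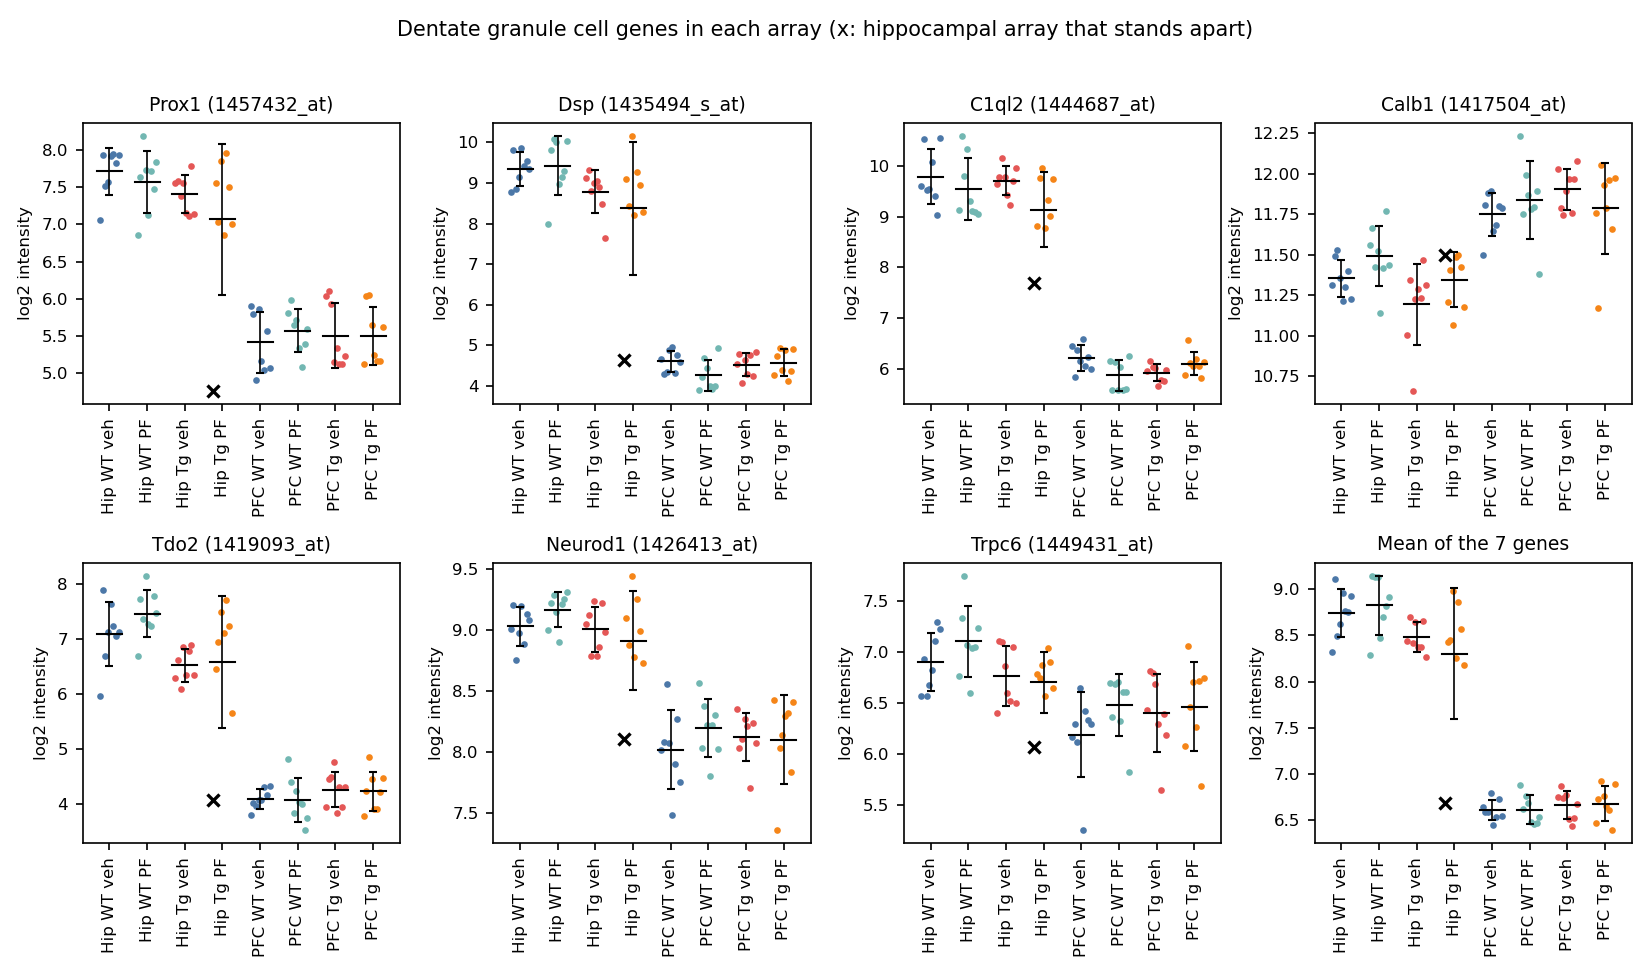
Log2 level of each of the 7 dentate granule cell genes on all 64 arrays, by group (Hip, hippocampus; PFC, prefrontal cortex; WT, wild type; Tg, Tg2576; veh, vehicle; PF, PF-04447943). Each point is 1 array, bars are the group mean ± SD over 8 arrays, and the black cross is the hippocampal array that stands apart, which for Dsp (4.62) and Tdo2 (4.06) falls among the cortical arrays and for Prox1 (4.76) below them. The last panel is the mean of the 7 genes.

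The regional comparison asks how far each gene separates hippocampus from prefrontal cortex, and so how much granule cell signal the dissections carried. Prox1, Neurod1, Dsp, C1ql2 and Trpc6 were higher in hippocampus, Tdo2 was higher there too but had no test over both regions, and Calb1 was lower. In the fit over both regions, averaged over genotype and treatment, 11 of the 12 tested dentate probe sets were called, 9 higher and 2 lower in hippocampus. For 5 of the 9, the 3 of Prox1 and 2 of Dsp, the cortical mean (3.95 to 5.49) lay below the cortical filter of 5.91. They passed the filter over both regions only through their hippocampal level, so their higher call was set by how they entered, and their counts support nothing further. Of the 7 that passed in each region, 4 were called higher (C1ql2, both of Neurod1 and Trpc6), 2 lower (both Calb1) and 1 was not called. Of all 27022 probe sets tested, 68.3% were called, 31.4% higher and 36.9% lower, so a call by itself is common between these tissues. With the array that stands apart left out 11 of 12 were again called, against 68.8% of all. On every one of the 32 hippocampal arrays the level was above every cortical array for 1 of the 12 tested dentate probe sets, that of C1ql2, and for 0.955% of all probe sets tested. With 31 hippocampal arrays it was so for 7 of the 12, the same 5 of Prox1 and Dsp and those of C1ql2 and 1 of Neurod1, against 1.98% of all. Among the 7 that passed the filter in each region it was so for those 2.

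Dsp was bright in hippocampus and below the filter in cortex. Its level ran from 4.62 to 10.15 over 32 hippocampal arrays, median 9.12, and from 3.89 to 4.94 over 32 cortical arrays, median 4.48. The 31 other hippocampal arrays, the lowest at 7.63, did not overlap with cortex. The difference was 4.50 ± 0.17 (SE, n = 32 per region) and 4.64 without the array that stands apart. It is given without a p, since Dsp passed the filter over both regions only through its hippocampal level. No fold is given for Dsp, Prox1 and Tdo2, since their cortical levels are below the filter on low values and give no measured floor. The second tested Dsp probe set differed by 4.30, and 1427610_at, which was too dim to be tested, by 1.64.

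C1ql2 ranged from 7.69 to 10.58 in hippocampus (median 9.57) and from 5.59 to 6.60 in cortex (median 6.05). The regions did not overlap on any array, including the one that stands apart. The difference was 3.51 ± 0.106 (SE, limma adjusted p = 5.08e-36), and 3.57 without that array, or 11.9-fold. The fold rests on a cortical mean of 6.03, which is close to the filter of 5.91.

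Prox1 lay between 4.76 and 8.19 in hippocampus (median 7.56) and between 4.91 and 6.10 in cortex (median 5.47). Apart from the outlying array, the lowest hippocampal value was 6.86, above all of cortex. The difference was 1.95 ± 0.12 (SE) for the probe set 1457432_at and 2.03 without that array. It is again set against a cortical level below the filter, and so given without a p. The other Prox1 probe sets gave wider gaps, 2.40 for 1421336_at and 2.65 for 1437894_at.

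Neurod1, which cortical excitatory neurons also express, had a smaller gap, with hippocampal levels of 8.10 to 9.44 (median 9.06) and cortical levels of 7.35 to 8.56 (median 8.12). The array that stands apart was again the single hippocampal array within the cortical range. The difference was 0.92 ± 0.066 (SE, limma adjusted p = 4.42e-19), or 1.93-fold without that array. Its second probe set differed by 0.59, and there 19 of 32 hippocampal arrays exceeded all of cortex.

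Tdo2 was measured at 4.06 to 8.16 in hippocampus (median 7.09) and at 3.51 to 4.84 in cortex (median 4.11). Again 31 of 32 hippocampal arrays were above all cortical arrays, and the difference, not tested over both regions, was 2.76, or 2.86 without the array that stands apart, against a cortical mean of 4.16 that is below the filter. The dimmer Tdo2 probe sets differed by 0.59 and 0.45, with 20 and 18 hippocampal arrays above all of cortex.

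Trpc6 separated the regions least of the genes that were higher in hippocampus. It ran from 6.06 to 7.74 in hippocampus (median 6.87) and from 5.25 to 7.05 in cortex (median 6.40), and 9 of 32 hippocampal arrays were above all of cortex. The mean difference was 0.48 ± 0.086 (SE, limma adjusted p = 1.55e-06), or 1.42-fold without the array that stands apart.

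Calb1 was lower in hippocampus on its brightest probe set, 1417504_at, at 10.66 to 11.77 (median 11.38) against 11.17 to 12.23 in cortex (median 11.81). The ranges overlapped, and the difference was -0.47 (limma adjusted p = 6.34e-13), with -0.48 without the array that stands apart. A second probe set, 1456934_at, was also called lower, by -0.17 with an adjusted p of 0.025 in limma. The third tested one, 1448738_at, differed by -0.07 (limma adjusted p = 0.249), and the untested 1458836_at by 0.10. Calb1 thus did not separate hippocampus from cortex upwards, and its values are those of whole tissue.

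In vehicle-treated wild-type mice alone, 8 arrays per region, 10 of the 12 probe sets were called, 9 higher, with the same 5 of Prox1 and Dsp among them, and 1 lower, where 40.5% of all tested probe sets were called.

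Related genes behaved unevenly in the average over all groups, the contrast in which 31.4% of all probe sets were called higher and 36.9% lower. A gene of these lists, too, could enter through a high hippocampal level alone. Of 16 tested relatives of the 7 genes, 11 were higher in hippocampus, among them the desmosomal partner Pkp2 by 2.96, the channel subunits Trpc4 and Trpc5 by 1.19 and 1.06 and the transcription factor Neurod6 by 1.12, and 1 was lower. Among 11 tested genes of the further dentate list, 6 were higher, with Lct (lactase) at 3.87, Il16 at 2.35, Sema5a at 1.45 and Dock10 at 1.25, and 3 were lower. Of 10 tested CA1 markers 9 were higher.

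Within a group, the dentate genes varied more from array to array than most genes on the chip. After removal of group means, the SD over hippocampal arrays was 0.96 for Dsp, 0.72 for Tdo2, 0.59 for Prox1 and 0.57 for C1ql2, against a median of 0.167 over all tested probe sets. These are at the 98.4th percentile or higher. Over the other 31 arrays they were 0.60, 0.52, 0.36 and 0.50, at percentiles 98.9, 98.2, 94.3 and 97.9 of all. Trpc6 had an SD of 0.29 there, at the 88.8th percentile. Neurod1 and Calb1, both at 0.19, were near the 66th percentile (65.9 and 65.5).

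This variation was shared by most of the genes. Over the 31 arrays, with group means removed, all 15 pairs among the 6 genes other than Calb1 had a correlation above 0. They ran from 0.235 to 0.78 with a median of 0.54, and 9 of the 15 passed an adjusted permutation p of 0.05 over the 21 pairs computed. For these counts of pairs and those below, the share over pairs of all genes was not computed. They are not read as particular to these genes. Prox1 and Dsp correlated at r = 0.78 and rho = 0.75 (permutation p = 2e-05 for each, adjusted 0.00014 and 0.00021). The r was 0.71 without the 2 arrays farthest from the Prox1 median, 0.92 in replicates 1 to 4 and 0.54 in replicates 5 to 8. Prox1 and Neurod1 correlated at r = 0.75 and rho = 0.79 (permutation p = 1e-05 for each, the smallest that 100000 resamples can give, adjusted 0.000105 and 0.00021), with 0.82 without 2 arrays and 0.66 and 0.86 in the same subsets of replicates. For Prox1 and Trpc6 the values were r = 0.74 and rho = 0.71 (permutation p = 1e-05 and 3e-05, adjusted 0.000105 and 0.00021), with 0.71, 0.64 and 0.82 for the same subsets. An array that was high in Prox1 was thus usually high in Dsp, Neurod1 and Trpc6 as well.

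Over all 31 arrays C1ql2 shared this pattern only weakly, and Calb1 showed little of it. Whether their correlations differ from those of the other genes was not tested. The 5 pairs of C1ql2 with the other marker genes lay between 0.235 and 0.31, and none passed. Those of Dsp and Tdo2 with C1ql2 went from 0.62 and 0.73 in replicates 1 to 4 to -0.27 and -0.26 in replicates 5 to 8. The 6 pairs with Calb1 lay between -0.18 and 0.32, and none passed. In replicates 1 to 4 they ran from -0.09 to 0.28. In replicates 5 to 8 Calb1 had 0.60 with Trpc6, 0.59 with Neurod1, 0.55 with Tdo2 and 0.42 with Prox1. With Dsp and C1ql2 it had 0.15 and -0.38 there. Correlated with the mean of the other 6 genes, Prox1 had 0.81, Neurod1 0.71, Dsp 0.70, Tdo2 0.64, Trpc6 0.60, C1ql2 0.31 and Calb1 0.008. With all 32 arrays the 15 pairs without Calb1 ran from 0.43 to 0.92, and all 15 passed. The array that stands apart thus set the count for C1ql2. It did so too for Tdo2 with Trpc6, which did not pass without it (adjusted permutation p = 0.0993). Probe sets of 1 gene correlated at 0.65 to 0.91 for Prox1, 0.57 to 0.81 for Dsp, 0.40 to 0.62 for Tdo2 and 0.67 for Neurod1 over the 31 arrays. The 3 tested Calb1 probe sets correlated with each other at 0.76 to 0.77, and 1458836_at with them at 0.10 to 0.21.

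**Figure D2:**
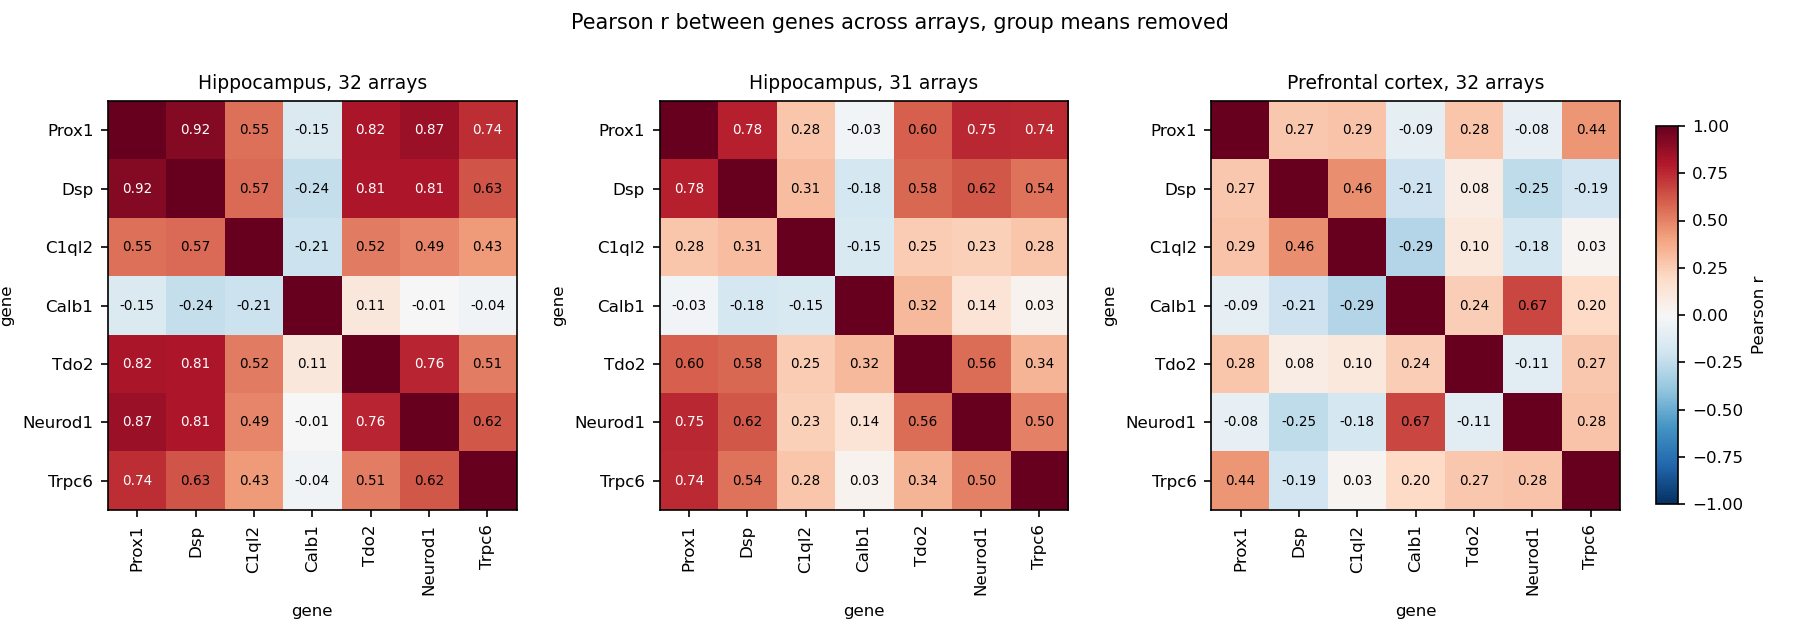
Pearson correlation of the 7 genes, pair by pair (genes on both axes, colour from -1 to 1), after removal of group means, in hippocampus with all 32 arrays, without the array that stands apart (31 arrays) and in prefrontal cortex (32 arrays). Over the 31 arrays the 15 pairs without Calb1 lie between 0.235 and 0.78, and in cortex, where Prox1, Dsp and Tdo2 are below the filter, between -0.25 and 0.46.

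Because these genes are read from dissected tissue, the dentate mean of each array was set beside marker lists of the neighbouring cells, as a description. Over the 31 arrays, with group means removed, it correlated at r = 0.89 (rho 0.91) with the list of 13 further dentate genes, which shares no gene with the 7. It correlated at -0.75 (rho -0.74) with the list of inhibitory neuron markers, at -0.63 (rho -0.65) with cortical layer markers, at -0.56 (rho -0.55) with meningeal markers and at 0.56 (rho 0.55) with CA2 and CA3 markers. The CA1 list had r = -0.04, the signal range of the array, which is the interquartile range of its log2 values, -0.05. The difference between 3′ and 5′ control probe sets of Actb and Gapdh, a measure of RNA quality, had 0.01. Arrays low in dentate genes were therefore mostly arrays high in inhibitory and cortical layer markers, with no such relation to CA1 markers. With all 32 arrays the CA1 list had r = 0.56 and the myelin list 0.70 in place of 0.26, so these values rest on 1 array.

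**Figure D3:**
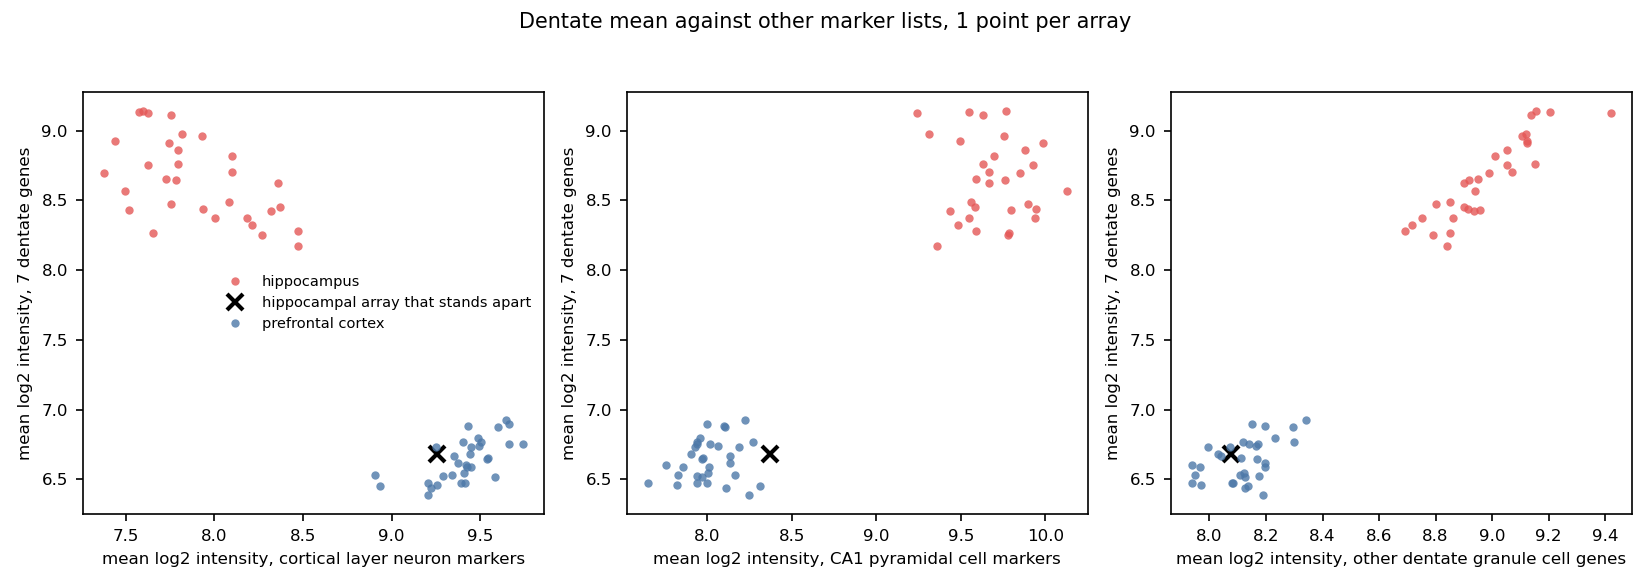
Mean log2 intensity of the 7 dentate genes on each array (vertical axes) against the mean log2 intensity of cortical layer markers, CA1 markers and further dentate genes (horizontal axes), with 1 point per array, hippocampus in red, prefrontal cortex in blue and a black cross for the hippocampal array that stands apart. The cross lies near the cortical arrays, at a dentate mean of 6.68. Within the other hippocampal arrays the dentate mean rises with the further dentate genes and falls with the cortical layer markers.

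The genes whose levels followed the dentate mean most closely were named by their correlation over hippocampal arrays after removal of group means. Over all 32 arrays the highest were Prox1os (0.94), Sema5a (0.93), Tbc1d8b (0.93), Kctd4 (0.92), Pcdh20 (0.91), Cyp7b1 (0.91), Nr3c2 (0.91), Dock10 (0.90), Gng7 (0.90) and Tanc1 (0.90). Prox1os is named for the strand opposite Prox1, and which strand its probe set reads was not examined. The lowest were Prkar1b (-0.91), Rasgef1c (-0.89), Tpd52 (-0.89), Ntsr1 (-0.89) and Chga (-0.88). Over 31 arrays the highest were Prox1os (0.84), Kctd4 (0.84), Rfx3 (0.83), Sema5a (0.82) and Lct (0.82), and the lowest Pbx3 (-0.78), Elavl4 (-0.78), Ntsr1 (-0.76), Rbp4 (-0.76) and Vip (-0.76). Vip encodes a peptide of cortical and hippocampal interneurons, and Nr3c2 the mineralocorticoid receptor. Without the array that stands apart, several genes at the top were also higher in hippocampus than in cortex. The gaps were 1.71 for Prox1os, 1.66 for Kctd4, 2.03 for Nr3c2, 2.43 for Pcdh20 and 3.96 for Lct. They were small for others at the top, such as Rfx3 (0.57), Lyst (0.31) and Pgbd5 (0.22). Vip (-1.60) and Rbp4 (-1.10) were lower, and Pbx3 (-0.35) and Ntsr1 (-0.20) less so. Prox1os and Lct were at 5.59 and 5.42 in cortex, below the filter. The share of all genes with such gaps was not computed. Of 12954 genes measured, 409 (3.16%) had a correlation above 0.5 without that array, and 738 (5.7%) one below -0.5. With all 32 arrays the counts were 987 (7.62%) and 1339 (10.3%).

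The transgene comparison asks whether these genes differ between Tg2576 and wild-type hippocampus. Averaged over both treatments, every one of the 13 tested dentate probe sets had a lower mean in Tg2576 mice, and none was called (limma, 16 arrays per genotype). Over all probe sets, 0.0962% were called (26), or 0.111% without the array that stands apart (30), and 50.3% lay below 0. At an unadjusted p under 0.05, 11 of the 13 were lower, against 4.71% of all probe sets, and 10 without the array that stands apart, against 4.24%. The 13 are not independent, since probe sets share genes and the genes varied together from array to array as described above. No p is given for them as a group.

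Tdo2 had the smallest adjusted p of the genes other than Calb1. In vehicle-treated mice its level was 5.96 to 7.90 (median 7.13) in wild type and 6.08 to 6.89 (median 6.49) in Tg2576. On PF-04447943 it was 6.70 to 8.16 (median 7.42) in wild type and 4.06 to 7.72 (median 7.03) in Tg2576, with 5.65 as the lowest value once the array that stands apart is left out. The genotypes overlapped under both treatments, and 14 of 16 Tg2576 arrays were below the wild-type mean of their own treatment. The difference was -0.72 ± 0.24 (SE, limma adjusted p = 0.47), and -0.55 ± 0.18 (limma adjusted p = 0.464) without that array.

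Dsp, on its brightest probe set, was at 8.77 to 9.87 (median 9.38) in vehicle-treated wild type and 7.63 to 9.31 (median 8.95) in vehicle-treated Tg2576. On PF-04447943 the ranges were 7.98 to 10.09 (median 9.56) in wild type and 4.62 to 10.15 (median 8.69) in Tg2576. Of the 16 Tg2576 arrays, 15 were below the wild-type mean, while the groups overlapped. The difference was -0.80 ± 0.32 (SE, limma adjusted p = 0.598), and -0.53 ± 0.20 (limma adjusted p = 0.62) without the array that stands apart. The other tested Dsp probe set gave -0.92 ± 0.34 and, without that array, -0.66 ± 0.24 (limma adjusted p = 0.546 and 0.589).

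Prox1 ran from 7.06 to 7.94 (median 7.88) in vehicle-treated wild type and from 7.11 to 7.79 (median 7.47) in vehicle-treated Tg2576. On the drug it ran from 6.86 to 8.19 (median 7.68) and from 4.76 to 7.97 (median 7.27). In 13 of 16 Tg2576 arrays it was below the wild-type mean, by -0.40 ± 0.20 on average (SE, limma adjusted p = 0.668) and by -0.24 ± 0.12 without the array that stands apart (limma adjusted p = 0.761). The 2 other Prox1 probe sets differed by -0.49 and -0.53, and by -0.32 and -0.35 without it.

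C1ql2, Neurod1 and Trpc6 showed smaller gaps. C1ql2 differed by -0.25 ± 0.19 (SE, limma adjusted p = 0.794) and by -0.14 without the array that stands apart, and 10 of 16 Tg2576 arrays were below the wild-type mean. For Neurod1 the difference was -0.14 ± 0.08 (SE, limma adjusted p = 0.736) and -0.08 without it, again with 10 of 16. Trpc6 was lower by -0.27 ± 0.10 (SE, limma adjusted p = 0.595), or -0.22 without it, in 13 of 16.

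Calb1 had the smallest p of the 7 genes in this comparison, on probe set 1448738_at. It lay at 6.94 to 7.40 (median 7.25) in vehicle-treated wild type and at 6.53 to 7.11 (median 7.0) in vehicle-treated Tg2576. On the drug it lay at 7.08 to 7.84 (median 7.61) in wild type and 6.87 to 7.39 (median 7.20) in Tg2576. All 16 Tg2576 arrays were below the wild-type mean of their treatment, although the ranges overlapped. The difference of -0.29 ± 0.07 (SE, limma adjusted p = 0.138) did not pass, nor did -0.30 without the array that stands apart (limma adjusted p = 0.147). The Calb1 value was thus as large without that array. The other tested Calb1 probe sets gave -0.31 ± 0.08 (1456934_at, limma adjusted p = 0.244, 14 of 16 arrays) and -0.15 ± 0.07 (1417504_at, limma adjusted p = 0.61, 13 of 16 arrays). In replicates 1 to 4 the 3 Calb1 differences were -0.45, -0.43 and -0.31, and in replicates 5 to 8 they were -0.13, -0.18 and -0.00.

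Under vehicle alone the 13 differences were all below 0, 2 of them at an unadjusted p under 0.05 and 5 without the array that stands apart, against 3.28% and 3.93% of all probe sets. None was called by limma, against 0.0111% of all. Under PF-04447943 they were all below 0 too, 10 at an unadjusted p under 0.05 and 4 without that array, against 2.84% and 1.55% of all. None of the 13 was called there by limma, and 0% of all probe sets were. The drug by genotype interaction was called for none of the 13 by limma, with 0 at an unadjusted p under 0.05, and for 0% of all, with 3.43% at an unadjusted p under 0.05. The transgene difference in hippocampus minus that in cortex was below 0 for all 12 probe sets tested over both regions, with 7 at an unadjusted p under 0.05 (6 without that array). For the 5 of Prox1 and Dsp, below the filter in cortex, this only restates the hippocampal difference. Of the 7 measured in each region, 4 had an unadjusted p under 0.05, the 3 of Calb1 (-0.21, -0.36 and -0.43) and Trpc6 (-0.37). None of the 12 passed in limma, and none of all probe sets did, with 6.09% at an unadjusted p under 0.05, or 5.23% without that array.

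Marker lists of other cells were read for the same contrast. Of 12 tested genes of the further dentate list, 11 were below 0 with a median of -0.17 and none was called by limma, with 3 at an unadjusted p under 0.05. The largest gaps were those of Lct (-0.33), Sema5a (-0.32), Dock10 (-0.29) and Plk5 (-0.27). With the array that stands apart left out 12 of 12 were below 0, the median was -0.15, and these 4 genes were at -0.16, -0.18, -0.17 and -0.21. The 8 myelin genes were also all below 0, with a median of -0.17, and of -0.07 without that array. CA1 markers had a median of 0.003 over 10 genes. With the myelin list as a covariate the transgene differences were -0.43 for Dsp, -0.51 for Tdo2, -0.19 for Prox1 and -0.13 for C1ql2. This fit included the array that stands apart, which had the lowest myelin mean. With that array left out and no covariate, Dsp was at -0.53 and Prox1 at -0.24. The myelin covariate was not fitted with that array left out. With the cortical layer list as a covariate and that array left out, the transgene differences were -0.50, -0.52 and -0.22 for Dsp, Tdo2 and Prox1. Of 6 tested genes of immature granule cells and progenitors none was called. Tac2 (0.40, limma adjusted p = 0.598) and Dcx (0.22, limma adjusted p = 0.642), the latter a marker of newly born neurons, had means that were higher in Tg2576, by 0.31 and 0.21 without that array. No direction of the whole list is read from Tac2 and Dcx alone.

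**Figure D4:**
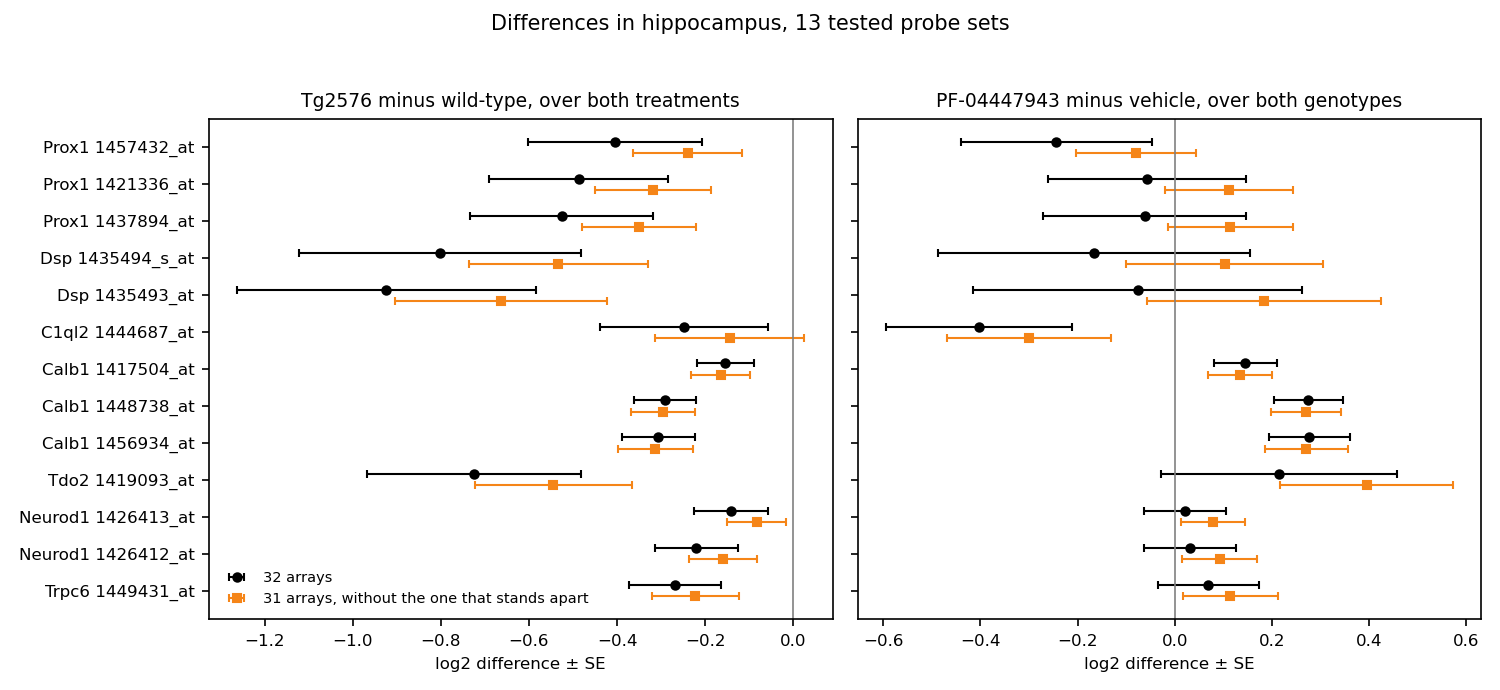
Difference of each tested dentate probe set in hippocampus for Tg2576 minus wild type and for PF-04447943 minus vehicle, in log2 units with bars of ± SE, in black for all 32 arrays and as orange squares for 31 arrays. All 13 transgene differences lie below 0 in both sets, and the Calb1 probe sets lie above 0 for the drug.

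PF-04447943 was compared with vehicle in hippocampus to see which of these genes moved with inhibition of PDE9A. Averaged over both genotypes, 1 of the 13 tested dentate probe sets was called, Calb1 1448738_at, which rose. Of all probe sets 2.18% were called, 0.777% higher and 1.40% lower, and 35.5% had a difference below 0. On 31 arrays the same probe set was called, against 2.01% of all probe sets, 0.736% higher. One call among 13 is not far from that background. The other genes did not move together. With all arrays 7 of 13 probe sets lay above 0, and 11 of 13 without the array that stands apart, which belongs to a drug-treated group.

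Calb1 1448738_at was 0.27 ± 0.07 higher on the drug (SE, limma adjusted p = 0.0386), from the group values given above, and 13 of 16 drug-treated arrays were above the vehicle mean of their genotype. Treated and untreated arrays overlapped in both genotypes. Without the array that stands apart the difference was 0.27 with a limma adjusted p of 0.0474. The probe set 1456934_at rose by a like amount, 0.28 ± 0.08 in 13 of 16 arrays, and did not pass (limma adjusted p = 0.0662). Its levels were 6.77 to 7.47 (median 7.13) and 6.95 to 7.83 (median 7.47) in wild type on vehicle and drug, and 6.36 to 7.19 (median 6.91) and 6.72 to 7.51 (median 7.17) in Tg2576. The brightest Calb1 probe set gave 0.14 ± 0.07 (limma adjusted p = 0.20), again in 13 of 16 arrays.

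Taken by genotype, the Calb1 1448738_at difference was 0.31 in wild type (limma adjusted p = 0.198) and 0.24 in Tg2576 (limma adjusted p = 0.412), contrasts in which 0.0037% and 0% of all probe sets were called, and the interaction was -0.07 (limma adjusted p = 0.989). Mean Calb1 levels on this probe set were 7.20 ± 0.16 and 7.51 ± 0.28 in wild type on vehicle and drug, and 6.95 ± 0.19 and 7.19 ± 0.17 in Tg2576 (SD, n = 8). The mean of drug-treated Tg2576 mice was thus close to that of vehicle-treated wild type, a pair that differs in both genotype and treatment and was not tested. The drug difference in hippocampus minus that in cortex was 0.38 ± 0.11 for this probe set and did not pass (limma adjusted p = 0.141), where 0.0296% of all probe sets were called.

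Properties of the arrays moved with the drug as well. The signal range was 3.51 ± 0.08 on vehicle and 3.65 ± 0.06 on drug in wild type, and 3.51 ± 0.12 and 3.60 ± 0.11 in Tg2576 (SD, n = 8). With it as a covariate the Calb1 1448738_at difference was 0.20, no longer called (limma adjusted p = 0.685). The choroid plexus list averaged 7.58 ± 1.55 in vehicle-treated wild type and 6.76 to 6.81 in the other groups, and with it as a covariate the difference was 0.26 (limma adjusted p = 0.0568). The call was also lost after quantile normalization (limma adjusted p = 0.0684), in replicates 5 to 8 alone (0.20, limma adjusted p = 0.846) and in 17 of 32 fits that left out 1 array, where the difference stayed between 0.245 and 0.305.

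**Figure D5:**
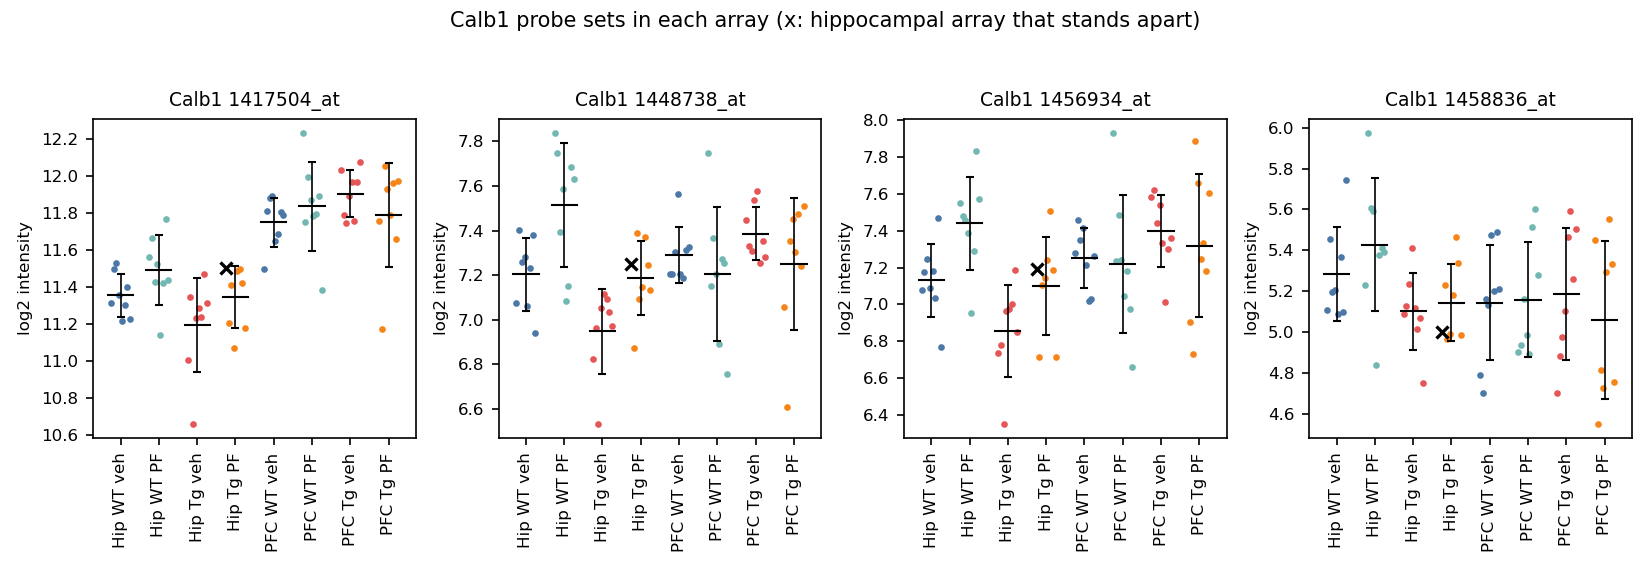
Log2 intensity of the 4 Calb1 probe sets on each array in the 8 groups (Hip, hippocampus; PFC, prefrontal cortex; WT, wild type; Tg, Tg2576; veh, vehicle; PF, PF-04447943), with bars for the mean ± SD of 8 arrays and a black cross for the array that stands apart. On 1448738_at the hippocampal group means are 7.20 and 7.51 in wild type and 6.95 and 7.19 in Tg2576, on vehicle and drug.

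C1ql2 had the lowest drug difference among the 7 genes. It ran from 9.03 to 10.54 (median 9.57) on vehicle and from 9.05 to 10.58 (median 9.21) on drug in wild type, and from 9.22 to 10.14 (median 9.73) and 7.69 to 9.96 (median 9.16) in Tg2576. The ranges overlapped, and the difference of -0.40 ± 0.19 did not pass (limma adjusted p = 0.224). Without the array that stands apart it was -0.30 (limma adjusted p = 0.284).

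Tdo2 was 0.21 higher on the drug with all arrays and 0.39 higher without the array that stands apart, which did not pass (limma adjusted p = 0.182). Dsp changed sign with that array, from -0.17 to 0.10 without it. Prox1 gave -0.24 and -0.08, Neurod1 0.02 and 0.08, and Trpc6 0.07 and 0.12, in each case with and without it. The drug differences of Dsp, Prox1 and Tdo2 thus depended on 1 array. Among 16 tested relatives of the 7 genes, 1 was called, the desmosome-associated plakin Ppl, at -0.29 (limma adjusted p = 0.047), and none without that array. None of the 12 tested genes of the further dentate list was called, with a median of -0.008, or of 0.08 without that array. Mossy cell markers, 6 tested, had no call for the transgene or for the drug.

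In prefrontal cortex 7 probe sets of 4 genes, C1ql2, Calb1, Neurod1 and Trpc6, passed the filter, and none was called in any of the 7 comparisons by limma. Of all probe sets 0.0259% were called for the averaged transgene effect and none in the other 6. At an unadjusted p under 0.05 the counts of the 7 were 1 for the transgene under vehicle, 1 for the drug in wild type and 1 for the interaction, each of them C1ql2, and 0 in the other 4 comparisons. Of all probe sets 10.8%, 2.43% and 3.06% had such a p in those 3 comparisons.

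C1ql2 in cortex lay at 5.85 to 6.60 (median 6.19) in vehicle-treated wild type and 5.67 to 6.15 (median 5.98) in vehicle-treated Tg2576. On the drug it lay at 5.59 to 6.26 (median 5.83) in wild type and 5.82 to 6.56 (median 6.08) in Tg2576. All 4 groups overlapped. These levels are close to the filter of 5.91, and the mean of drug-treated wild type, 5.87, was below it. The interaction was 0.52 ± 0.17 with a limma adjusted p of 0.99992, the drug difference in wild type -0.34 ± 0.12 and the transgene difference under vehicle -0.29 ± 0.12 (limma adjusted p = 0.419).

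The cortical arrays varied in their level of striatal markers, and how much striatum the dissections held was not tested. The mean of 6 striatal markers ran from 8.65 to 11.59 over the 32 cortical arrays. Trpc6 was lower where that mean was higher (r = -0.75, permutation p = 2e-05, adjusted 0.00014; rho = -0.63, permutation p = 0.00054, adjusted 0.00378, over the 7 genes). The r was -0.64 without the 2 farthest arrays, -0.36 in replicates 1 to 4 and -0.89 in replicates 5 to 8. Neurod1 followed at r = -0.57 (permutation p = 0.00143, adjusted 0.005) and rho = -0.57 (permutation p = 0.00171, adjusted 0.00598), with -0.42 without 2 arrays and -0.15 and -0.83 in replicates 1 to 4 and 5 to 8. The other 5 genes did not pass. In cortex the 15 pairs without Calb1 ran from -0.25 to 0.46 and none passed. Of these, 12 involve Prox1, Dsp or Tdo2, whose cortical levels are below the filter, so these pairs could not show the hippocampal pattern. The other 3 pairs, among C1ql2, Neurod1 and Trpc6, were at -0.18, 0.03 and 0.28. A pair that did pass was Calb1 with Neurod1, at r = 0.67 (permutation p = 0.00015, adjusted 0.00315) and rho = 0.65 (permutation p = 0.00022, adjusted 0.00462), with 0.54 without 2 arrays and 0.77 and 0.57 in the same subsets of replicates. In hippocampus without the array that stands apart the same pair had r = 0.14, with 0.10 in replicates 1 to 4 and 0.59 in replicates 5 to 8. In replicates 5 to 8 the pair was thus similar in both regions. Whether the regions differ in these correlations was not tested.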

How the data were processed

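RNA of hippocampus and prefrontal cortex was hybridised to 64 Affymetrix mouse arrays. The deposited values are linear intensity values; the submitters' processing notes name RMA, without a version, as the authors' tool. They ran from 5.87 to 34088.9 and were converted to log2. Of the 45101 probe sets, 34945 had 1 gene symbol, 932 several, 9160 none and 64 were controls. Probe sets below the 40th percentile of mean level in a region were left out (log2 5.94 in hippocampus, 5.91 in prefrontal cortex, 5.93 over both). limma 3.58.1 (R 4.3.3, data.table version 1.17.8) fitted 4 groups per region, or 8 over both, with no pairing. Correlations used permutation tests with 100000 resamples (Python 3.11.15, numpy 2.4.6, pandas 2.3.3, scipy 1.17.1; figures with matplotlib 3.10.9). The genes and lists were chosen with earlier results of these data known. Named genes are the 7 members, the 10 genes with the highest and the 5 with the lowest correlation to the dentate mean, and up to 4 genes with the largest difference of each list described. The fit was tested on simulated data. The number of arrays limits the precision. Alternatives covered the filter, probe set choice, normalization, priors, array weights, blocks, covariates and left-out arrays.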

Additional observations from a re-analysis of the deposited data

Results flagged for a closer look

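In groups of 8 arrays, the gap of the highest or lowest array to its nearest neighbour was divided by the range of the group and set against Dixon's critical value of 0.526. Of 64 groups examined 6 passed, and chance alone passes about 1 in 20. The hippocampal array of replicate 1 of the PF-04447943-treated Tg2576 group accounted for 3 of them. It had Prox1 at 4.756 (next lowest array 6.857, gap over range 0.653), Dsp at 4.624 (next 8.217, 0.65) and a dentate mean of 6.684 (next 8.176, 0.65). The other 3 were in prefrontal cortex and each came from another array. Calb1 was 11.17 in replicate 2 of the drug-treated Tg2576 group (next 11.66, 0.551). Trpc6 was 5.816 in replicate 8 of the drug-treated wild-type group (next 6.322, 0.569) and 5.247 in replicate 5 of the vehicle-treated wild-type group (next 6.11, 0.617).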

How the results depend on the processing

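The lower level of the dentate probe sets in Tg2576 hippocampus kept its direction under every alternative run for the probe sets named here and stayed uncalled under all but 2. The count of called probe sets went from 0 to 1 with array weights (Calb1 1448738_at, -0.33, limma adjusted p = 0.0348) and ran from 0 to 1 when 1 array was left out. There the 1 was the same probe set without replicate 5 of the drug-treated wild-type group (-0.32, limma adjusted p = 0.0376). For the drug in hippocampus the count went from 1 to 0 with a 60th percentile filter, with 1 probe set per gene or with a gene's probe sets averaged, where fewer features were tested. It was also 0 with quantile normalization, in replicates 5 to 8 only, with the signal range or choroid plexus covariate, and without the array that stands apart together with the replicate block or with the signal range covariate. It was 2 with the replicate block, with replicates 1 to 4 against 5 to 8 as a block, in replicates 1 to 4 only and at a threshold of 0.1, and ran from 0 to 2 when 1 array was left out (0 in 17 and 2 in 5 of 32). For the drug in wild type it went from 0 to 2 with array weights. The regional count of 11 fell to 4, 6 and 6 with the 60th percentile filter, 1 probe set per gene and the mean of probe sets, rose to 15 with no filter, and ran from 10 to 11 when 1 replicate number was left out. The count of 10 in vehicle-treated wild type was 4, 6, 5 and 14 under the same 4 settings. Signs turned in the hippocampal drug comparison for uncalled differences. Neurod1 went to -0.034 with quantile normalization and ran from -0.017 to 0.078 in fits that left out 1 array. Trpc6 went to -0.0066 in replicates 5 to 8. Dsp went to 0.053 with array weights, 0.000629 with the signal range covariate and 0.102 without the array that stands apart, and ran from -0.293 to 0.102 when 1 array was left out. Without that array and with an added block or covariate, chosen after seeing the data, Dsp was at 0.062, 0.109, 0.244 and 0.131. The cause of these changes was not tested. Replicate numbers were not used as pairs, since the labels do not say what they mark and not every same-numbered pair of arrays deviated together. Within a region 61 of 96 such correlations were over 0.1 (range -0.639 to 0.669), and 21 of 32 between regions (-0.268 to 0.667). Yet 17 of 32 hippocampal arrays correlated best with the cortical array of their own number among the 8 of their group, where chance would give 1 in 8. This is a hint from the data that some numbers mark a shared source. The regional p-values come from limma fits that treat all arrays as separate. With the replicate block the drug difference had a limma adjusted p of 0.0394 for Calb1 1448738_at and 0.0443 for 1456934_at, and no other call changed. Arrays carry no depth, and 4 of the 17 dentate probe sets were too dim to be tested in hippocampus.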
